A study of Sus scrofa with 12 samples.

Results

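The smooth muscle contractile genes are 10 genes of the deposited expression table, selected because the name in the table equals MYH11, ACTA2, ACTG2, TAGLN, CNN1, DES, LMOD1, MYLK, MYL9 or SMTN. This list was chosen with earlier results of these data known. The table holds 20674 genes, of which 15351 passed the filter on low counts, and all 10 contractile genes were among them. They were measured by poly(A) RNA sequencing of endometrium, the inner lining of the uterus, from Landrace × Yorkshire sows in the second or the third parity. The sows were fed from the day of breeding through a gestation period of 114 days. Endometrium was collected after this feeding period, and all 12 libraries were assigned to day 114. The basal control, L − N, received a low-fiber diet with 3.73% crude fiber and no N-carbamylglutamate (NCG, an analog of N-acetylglutamate that activates arginine synthesis), and L + N received this diet with 0.05% NCG. H − N received a high-fiber diet with 7.46% crude fiber, in which soybean bran and beet pulp replaced part of the corn, and H + N received the high-fiber diet with 0.05% NCG. Each group had 3 libraries, 12 in all. The labels do not say which sow each library came from, so the p-values measure the spread between these samples, which may be partly technical.

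In smooth muscle, Ca2+ bound to calmodulin activates the kinase MYLK, which phosphorylates the light chain MYL9 and allows the myosin heavy chain MYH11 to pull on filaments of the actins ACTA2 and ACTG2. CNN1, TAGLN, SMTN and LMOD1 bind actin filaments, and DES forms intermediate filaments. Most of these genes are driven by the transcription factor SRF with its cofactor MYOCD. In the uterus they are known above all from the myometrium, the muscular wall beneath the endometrium, and from the walls of blood vessels. The tissue was labelled as endometrium, and the question put to the contractile genes was how far their levels varied between libraries and between the 4 groups. In bulk samples, fewer smooth muscle cells and less contractile RNA per cell cannot be told apart.

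All 10 contractile genes were highest in the same library, L − N replicate 1. This was so for 9.51% of the genes tested. Their level in that library, relative to the median of the other 11 libraries, ran from 2.0 times in SMTN to 7.25 times in ACTG2, with a median of 3.82 times. Over all genes tested the same ratio had a median of 0.990, and 5% to 95% of the genes lay between 0.437 and 1.84. Because this library belongs to the control group, the comparisons of the contractile genes with L − N are given with and without it. The 12 libraries held 14369781 to 19309724 counted reads, and L − N replicate 1 lay inside this range with 15797001. Its 10 most abundant genes took 7.17% of the counts, against 6.49% to 9.41% over all libraries.

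**Figure D1:**
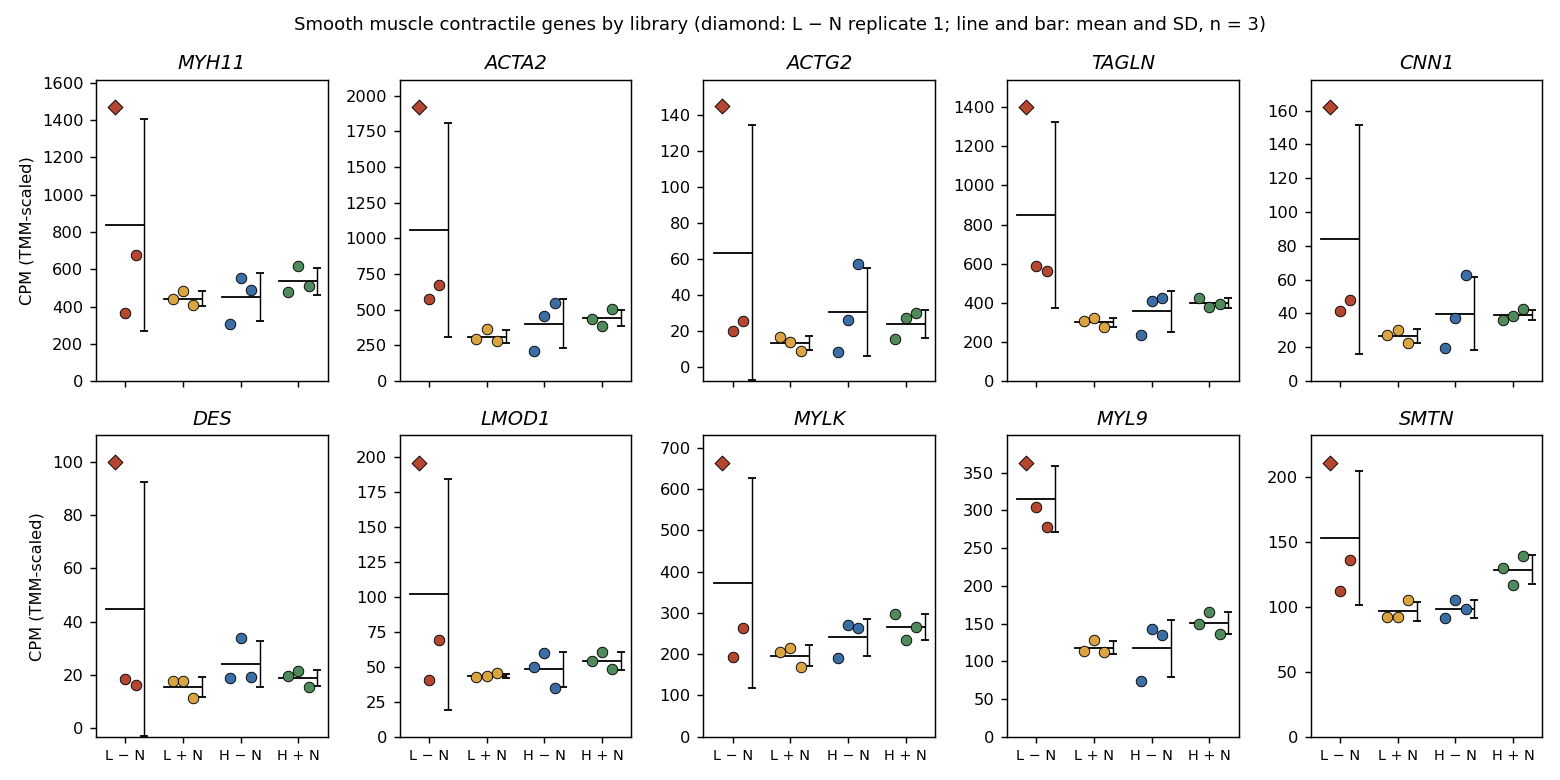
Level of each contractile gene in CPM (TMM-scaled read counts relative to library size, linear axes) in every library of the 4 groups. Circles are libraries, the diamond is L − N replicate 1, and line and bar give mean and SD (n = 3). The diamond is the highest point in all 10 panels, and in the panels of ACTA2, TAGLN and MYL9 all 3 L − N points lie above all others.

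Summed over the 10 genes, the level was 6630, 2260 and 2750 CPM in L − N replicates 1, 2 and 3. It was 1550, 1710 and 1430 CPM in L + N, and 1200, 2090 and 2130 CPM in H − N. In H + N the sum was nearly the same in each library, with 2050, 2050 and 2080 CPM. The 3 L − N libraries held the highest 3 sums, and the sums of L + N lay between those of H − N replicates 1 and 2. These sums corresponded to 0.125% to 0.659% of the counts. L − N had a mean sum of 3880 ± 2390 CPM, L + N of 1570 ± 138, H − N of 1810 ± 523 and H + N of 2060 ± 20.5 (SD, n = 3). With its replicate 1 left out the L − N mean was 2510 ± 343 CPM (SD, n = 2). The highest sum was 5.51 times the lowest over all libraries, and 2.28 times without L − N replicate 1. At the other end, H − N replicate 1 was the lowest library for 7 of the 10 genes, L + N replicate 3 for 2 and H − N replicate 3 for 1.

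Levels per gene length (FPKM, as deposited) separated abundant filament components from scarce ones. The median over the 12 libraries was 319 FPKM for ACTA2, 269 for TAGLN, 109 for MYL9 and 72.5 for MYH11. It was 32.8 FPKM for SMTN, 26.6 for MYLK, 23.7 for CNN1, 14.5 for ACTG2, 13.6 for LMOD1 and 7.60 for DES. ACTA2, the vascular or alpha actin of smooth muscle, was above 99.0% of the genes tested, while DES stood near the middle at 53.2%. Most neighbors in this order held their place. TAGLN was above MYL9, MYL9 above MYH11, MYH11 above SMTN, CNN1 above ACTG2 and LMOD1 above DES in 12 of 12 libraries. ACTA2 was above TAGLN and SMTN above MYLK in 11 of 12. MYLK exceeded CNN1 in 8 of 12 and ACTG2 exceeded LMOD1 in 6 of 12, so the order within these last pairs was not set.

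The 10 genes share no overlap with another gene of the table. RefSeq places a noncoding RNA gene over part of MYH11, LMOD1, MYLK and MYL9, and whether reads were counted by strand was not given in the sources used here, so the values of these 4 genes are uncertain to that extent.

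MYL9, the regulatory light chain (chromosome 17, 39788165 to 39795240, Sscrofa11.1), was the gene in which the groups stood apart most. Its level was 363, 305 and 278 CPM in L − N, 114, 128 and 113 in L + N, 74.3, 143 and 135 in H − N, and 150, 166 and 136 in H + N. Every L − N library was above every other library, and L − N replicate 1 was only 1.19 times the next. The mean of L − N was 316 ± 43.5 CPM, against 118 ± 8.55 for L + N, 117 ± 37.5 for H − N and 151 ± 15.2 for H + N (SD, n = 3). Differences between groups held 86.0% of the sum of squares of its log2 CPM, where the median gene had 42.8%.

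TAGLN (transgelin, an actin-binding protein of early smooth muscle differentiation; chromosome 9, 44561756 to 44567385) had 1400, 590 and 560 CPM in L − N and 306, 320 and 275 CPM in L + N. It had 235, 407 and 425 CPM in H − N and 427, 378 and 392 CPM in H + N. Again the 3 L − N libraries were above the other 9, with replicate 1 at 2.38 times the next. The group means were 851 ± 479, 300 ± 23.0, 356 ± 105 and 399 ± 25.1 CPM in the same order of groups (SD, n = 3).

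ACTA2 (chromosome 14, 100868145 to 100886732) had 1920, 578 and 672 CPM in L − N and 294, 364 and 278 CPM in L + N. In H − N it had 209, 455 and 544 CPM, and in H + N 437, 387 and 502 CPM. The L − N libraries again lay above all others, although replicate 2, at 578 CPM, was close to the 544 CPM of H − N replicate 3. The means were 1060 ± 748, 312 ± 45.5, 403 ± 173 and 442 ± 57.7 CPM (SD, n = 3). Complete separation of L − N above the rest, as in these 3 genes of 10, was found in 5.28% of the genes tested.

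The myosin heavy chain MYH11 (chromosome 3, 7002667 to 7143093) did not separate. It had 1470, 367 and 679 CPM in L − N, 440, 482 and 406 in L + N, 306, 554 and 487 in H − N, and 480, 618 and 512 in H + N. L − N thus held both the highest library and the second lowest one. Its kinase partner MYLK (chromosome 13, 136509878 to 136809674) had a similar spread within L − N, with 663, 192 and 264 CPM in L − N, 205, 216 and 169 in L + N, 190, 270 and 263 in H − N, and 298, 234 and 265 in H + N. Leaving out the first L − N library, the remaining L − N values of MYLK lay within the range of H − N and H + N. The gene counts do not separate the isoforms of MYLK, of which the long form and the short smooth muscle form are the best known.

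ACTG2, the gamma actin of visceral smooth muscle (chromosome 3, 69097366 to 69121542), had the widest range. It had 145, 19.9 and 25.8 CPM in L − N, 16.9, 14 and 9.03 in L + N, 8.50, 26.4 and 57.0 in H − N, and 15.4, 27.1 and 30.0 in H + N. Its highest library was 17.0 times its lowest, and the second highest was H − N replicate 3, not an L − N library. CNN1, the calponin that inhibits actomyosin (chromosome 2, 70183370 to 70190756), followed the same libraries, with 162, 41.3 and 48.0 CPM in L − N, 27.1, 30.4 and 22.4 in L + N, 19.4, 37.5 and 62.6 in H − N, and 36.3, 38.2 and 42.4 in H + N. H − N replicate 3 was second for CNN1 as well, and the H − N values spanned those of L + N and H + N.

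L − N replicate 1 had 2.96 times the next library in DES (desmin, on chromosome 15, 121428539 to 121435426). It had 2.85 times the next in LMOD1 (leiomodin, which nucleates actin filaments, on chromosome 10, 24165293 to 24194823). This ratio was also 2.85 in ACTA2, and it was 2.58 in CNN1 and 2.54 in ACTG2. DES had 100, 18.2 and 16.1 CPM in L − N, 17.6, 17.8 and 11.2 in L + N, 18.7, 33.8 and 19.2 in H − N, and 19.5, 21.4 and 15.5 in H + N. LMOD1 had 196, 40.8 and 69.0 CPM in L − N, 42.6, 43.4 and 45.3 in L + N, 50.2, 59.9 and 34.8 in H − N, and 53.9, 60.6 and 48.3 in H + N. For DES the other L − N libraries lay inside the range of L + N or just above it. SMTN (smoothelin; chromosome 14, 47879317 to 47902700) had the narrowest range, with 211, 112 and 136 CPM in L − N, 92.3, 92.6 and 105 in L + N, 91.6, 105 and 98.5 in H − N, and 130, 117 and 139 in H + N. The means of SMTN were 153 ± 51.7, 96.7 ± 7.31, 98.5 ± 6.89 and 129 ± 11.2 CPM in the same order of groups (SD, n = 3).

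The spread within groups differed between the genes. The SD of log2 CPM within groups was 1.09 in ACTG2, 0.80 in DES and 0.70 in CNN1, which placed them above 97.0%, 92.3% and 88.6% of the genes tested. It was 0.29 in MYL9 and 0.25 in SMTN, close to the 0.28 of the median gene. ACTA2, in which L − N separated from the rest, had 0.61, and MYH11, in which it did not, had 0.56. The median SD over the 10 genes went from 0.59 to 0.33 when L − N replicate 1 was left out, where the median gene had 0.26. ACTG2 kept a wide spread without that library, with an SD of 0.83, and DES came down to 0.35. The median coefficient of variation of the 10 genes was 69.4% among the L − N libraries and 30.7% among those of H − N, but 10.6% for L + N and 11.7% for H + N. In L + N and H + N this was below the 12.5% and 18.1% of the median gene of the same groups. L − N was the most variable group for 9 of the genes, and H − N for MYL9.

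The proportions of the contractile genes to each other also differed between libraries. MYL9 was 30.1% of TAGLN on the FPKM scale in L − N replicate 1, the lowest share of all libraries, and 60.2% and 57.8% in L − N replicates 2 and 3, the highest shares. In the other 9 libraries it ran from 36.8% to 51.2%. Relative to MYH11, MYL9 reached 438% and 216% in L − N replicates 2 and 3 and 131% in replicate 1, which lay in the range of 128% to 165% in the other groups. The L − N libraries thus shared a high MYL9 level but not the proportions of their contractile genes. ACTG2 as a share of ACTA2 was highest in H − N replicate 3 with 9.91%, followed by L − N replicate 1 with 7.14%, and ran from 3.07% to 6.63% elsewhere. The coding sequences of these actins are nearly identical and the handling of reads that match both was not given, so this share is uncertain.

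Over the 4 groups, 2 of the 10 genes passed edgeR's quasi-likelihood F test at a Benjamini-Hochberg adjusted p under 0.05, beside 6.96% of the genes tested. They were MYL9 (adjusted p = 0.0163) and TAGLN (adjusted p = 0.0421). The next were ACTA2 and SMTN with edgeR adjusted p-values of 0.0662 and 0.0963. At an unadjusted p under 0.05 there were 5 of 10, against 27.3% of all genes. When L − N replicate 1 was left out, MYL9 passed (edgeR adjusted p = 0.0123) and TAGLN did not (0.0567). TAGLN kept its call only when the omitted library was H − N replicate 1 or 3, with edgeR adjusted p-values of 0.0496 and 0.0466, and had 0.0534 to 0.0949 for the other 10. MYL9 lost it only without L − N replicate 3, with an edgeR adjusted p of 0.0888, where 4 genes of the whole table passed in place of 1068.

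NCG on the low-fiber diet gave the widest differences. In L + N against L − N, ACTA2, TAGLN and MYL9 were differentially expressed (edgeR's quasi-likelihood test, adjusted p under 0.05 and an absolute log2 fold change above 1), all lower in L + N. That is 3 of 10, beside 0.671% of the genes tested called lower and 3.99% called in either direction. MYL9 was 2.67-fold lower (log2 fold change −1.42, SE 0.215, edgeR adjusted p = 0.00818). TAGLN was 2.83-fold lower (−1.50, SE 0.332, edgeR adjusted p = 0.0203) and ACTA2 was 3.38-fold lower (−1.76, SE 0.445, edgeR adjusted p = 0.0329). The other 7 genes did not pass. Their log2 fold changes ran from −2.25 in ACTG2 (SE 0.786, edgeR adjusted p = 0.0934) to −0.66 in SMTN (SE 0.194, edgeR adjusted p = 0.0539), and the median over all 10 was −1.46, where the median of all genes was −0.02.

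These calls depended on single libraries except for MYL9. After removal of L − N replicate 1, only MYL9 was called (−1.30, SE 0.228, edgeR adjusted p = 0.00893), beside 2.15% of genes called lower, and the median of the 10 genes was −0.55. TAGLN then had a log2 fold change of −0.94, under the fold threshold, with an edgeR adjusted p of 0.0201, and ACTA2 had −1.0 with 0.0585. ACTA2 was not called without L − N replicate 3 either (edgeR adjusted p = 0.0584). Leaving out L + N replicate 1, 2 or 3 ended the calls of TAGLN (edgeR adjusted p = 0.0639, 0.0750 and 0.0748) and ACTA2 (0.101, 0.0936 and 0.108). In the opposite direction, 7 genes were called without L − N replicate 2, with MYH11, CNN1, LMOD1 and MYLK added, while the whole table had 543 calls in place of 613. CNN1 also passed without H − N replicate 1 or 3, at edgeR adjusted p-values of 0.0490 and 0.0483, and MYL9 was called with each of the 12 libraries left out.

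**Figure D2:**
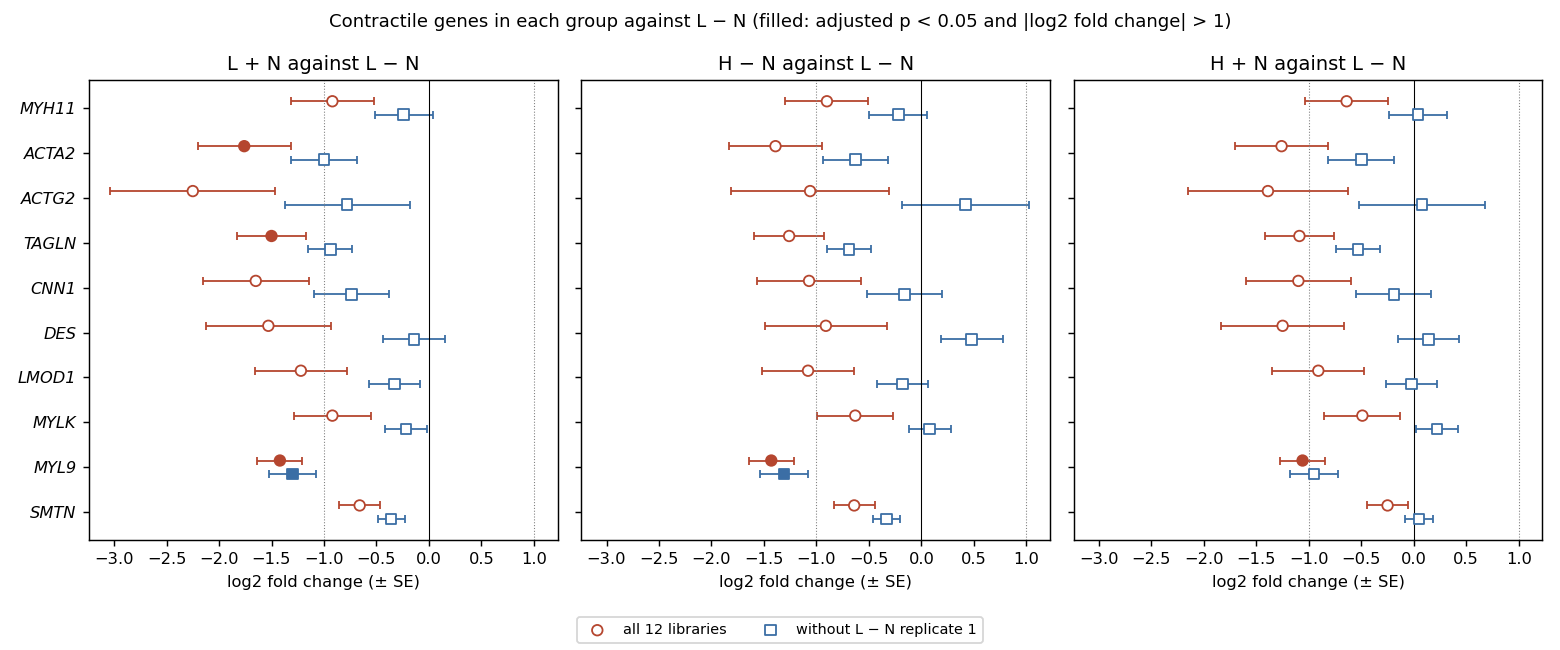
Log2 fold change (± SE) of each contractile gene against L − N, with all 12 libraries (circles) and without L − N replicate 1 (squares). Filled symbols passed both thresholds. MYL9 changes little between circle and square, and in H + N the squares of all 10 genes run from −0.95 to 0.22.

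Between the diets without NCG, MYL9 was the only contractile gene called by edgeR in H − N against L − N. It was 2.69-fold lower in H − N (log2 fold change −1.43, SE 0.215, edgeR adjusted p = 0.0162). This is 1 of 10, beside 2.01% of the genes tested called lower. TAGLN stood at the threshold (−1.26, SE 0.330, edgeR adjusted p = 0.0504). The other 8 genes ran from −1.39 in ACTA2 to −0.63 in MYLK. MYL9 missed the threshold without L − N replicate 3 (−1.51, edgeR adjusted p = 0.0658) and without H − N replicate 1 (−1.18, edgeR adjusted p = 0.0529), where the calls over all genes fell from 446 to 6 and 0. It passed without L − N replicate 1 (−1.31, edgeR adjusted p = 0.00499), beside 4.36% of genes called lower, while ACTG2, DES and MYLK had log2 fold changes of 0.42, 0.48 and 0.08. The median of the 10 genes was −1.06 with all libraries and −0.20 without that one.

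In H + N against L − N, the comparison of the combined diet with the control, DESeq2, the tool of the study, called ACTA2, TAGLN and MYL9. All 3 were lower in H + N. These were 3 of 10, beside 2.62% of genes called lower and 6.45% in either direction by the same tool. By edgeR MYL9 was again the only call. It was 2.09-fold lower in H + N (−1.06, SE 0.213, edgeR adjusted p = 0.0222), 1 of 10 beside 1.28% of genes called lower. The remaining genes ran from −1.39 in ACTG2 (SE 0.762, edgeR adjusted p = 0.263) to −0.25 in SMTN (SE 0.193, edgeR adjusted p = 0.432). With L − N replicate 1 left out, no contractile gene was called by edgeR, beside 3.17% of genes called lower, and 2 had an unadjusted p under 0.05, beside 30.1% of genes. MYL9 then had −0.95 with an edgeR adjusted p of 0.0268, just under the fold threshold, and 5 of the 10 genes were higher in H + N and 5 lower, with a median of 0.01. MYL9 also missed the threshold without L − N replicate 3 (−1.15, edgeR adjusted p = 0.0773), and when replicate 1 or 3 of H + N was left out (−1.08 and −1.0, edgeR adjusted p = 0.0707 and 0.0611). In these fits the calls over all genes fell from 549 to 4, 1 and 186. These 3 comparisons share the L − N libraries, so they are not independent of each other.

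The pooled effects of diet passed for none of the contractile genes. In high against low fiber, 0 of 10 were called by edgeR or by DESeq2, beside 0.0261% of genes by edgeR and 1.92% by DESeq2. With DESeq2, MYL9 had an adjusted p under 0.05 at a log2 fold change of −0.55, under the fold threshold. By edgeR 1 gene, MYL9, had an unadjusted p under 0.05, beside 19.5% of genes. Its edgeR log2 fold change was −0.54 (SE 0.150, edgeR adjusted p = 0.107), and the others ran from −0.44 in ACTA2 to −0.10 in ACTG2 and MYLK. All 10 values were below 0 with all libraries, and 7 of 10 were above 0 without L − N replicate 1. For NCG over both diets, 0 of 10 were called by edgeR or by DESeq2, beside 1.80% of genes by edgeR and 2.33% by DESeq2. MYL9 and TAGLN had adjusted p-values of 0.0129 and 0.0375 with DESeq2, at log2 fold changes of −0.53 and −0.68, under the fold threshold. By edgeR 6 of 10 were lower with an unadjusted p under 0.05, beside 10.4% of genes. The edgeR log2 fold changes ran from −1.29 in ACTG2 (SE 0.541, edgeR adjusted p = 0.176) to −0.14 in SMTN, and the smallest edgeR adjusted p was 0.0574 in MYL9. They ran, without L − N replicate 1, from −0.56 to 0.01.

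The interaction asks whether NCG acted differently under high fiber than under low fiber, as (H + N minus H − N) minus (L + N minus L − N). Here 0 of 10 contractile genes and 0% of all genes were called by edgeR. At an unadjusted p under 0.05 there were 6 of 10, against 12.8% of genes. All 10 values were above 0, from 1.05 in SMTN to 1.92 in ACTG2. DESeq2 called 3 of 10, namely TAGLN, MYL9 and SMTN, with adjusted p-values of 0.0306, 7.35e-05 and 0.0342, beside 1.21% of genes by the same tool. MYL9 had 1.78 (SE 0.301, unadjusted p = 8.99e-05, edgeR adjusted p = 0.182). MYL9 was called by edgeR without L − N replicate 1 (1.67, SE 0.309, adjusted p = 0.0254), beside 2.22% of genes, and DES turned to −0.21.

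Genes that work with the contractile apparatus were read from lists written from general knowledge, but with earlier results of these data known. None of SRF, MYOCD, MRTFA and MRTFB, which drive contractile transcription, passed the F test over the 4 groups (edgeR), beside 6.96% of the genes tested. At an unadjusted p under 0.05 there were 2 of 4, beside 27.3% of genes. MYOCD was low, at 1.18 to 5.48 CPM, and its highest library was L − N replicate 1, at 2.44 times the median of the others. SRF ran from 41.7 to 62.0 CPM, with the highest value again in that library at 1.20 times the median. Summed over the 4 genes, that library had 1.35 times the median of the others.

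Of 19 other genes of the smooth muscle cytoskeleton, 15 were highest in L − N replicate 1, beside 9.51% of the genes tested. Their median ratio to the other libraries was 1.76, where 5% to 95% of all genes lay between 0.437 and 1.84. For the 10 contractile genes the median was 3.82. The F test was passed by 3 of 19, beside 6.96% of the genes tested. They were VCL (vinculin, of adhesion plaques), TPM1 (alpha-tropomyosin) and CSRP1 (a LIM protein of actin filaments), with edgeR adjusted p-values of 0.0163, 0.0225 and 0.0245. VCL averaged 557 ± 39.1 CPM in L − N, while L + N, H − N and H + N averaged 311 ± 20.0, 310 ± 20.8 and 364 ± 47.6 (SD, n = 3). TPM1 had 694 ± 155, 346 ± 34.1, 356 ± 63.9 and 400 ± 45.1 CPM in the same order. CSRP1 had 452 ± 141, 206 ± 14.7, 238 ± 36.8 and 232 ± 38.1 CPM. In L + N against L − N, TPM1 and CSRP1 passed both thresholds (log2 fold changes −1.0 and −1.14, edgeR adjusted p = 0.0115 for each). That is 2 of 19, beside 0.671% of genes called lower. Without L − N replicate 1, 0 of 19 passed, beside 2.15% of genes called lower. SYNM, which encodes an intermediate filament protein, was picked after its values were seen, for its ratio of 4.20 in that library.

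Of 14 genes that control contraction, 3 were highest in L − N replicate 1, beside 9.51% of the genes tested. The median ratio of this list in that library was 1.27, and its summed level was 0.996 times the median of the others. ROCK1, a kinase that keeps the light chain phosphorylated, passed the F test (edgeR adjusted p = 0.0375), 1 of 14 beside 6.96% of the genes tested. The means of both groups without NCG were lower, L − N with 57.4 ± 8.91 CPM and H − N with 52.4 ± 18.2, than both groups with NCG, L + N with 110 ± 19.3 and H + N with 95.2 ± 9.92 (SD, n = 3). In L + N against L − N, 1 gene of this list was called lower, beside 0.671% of all genes, and 1 higher, beside 3.32%. They were PPP1R14A, an inhibitor of myosin phosphatase (−1.10, SE 0.306, edgeR adjusted p = 0.0449), and ROCK2 (1.07, SE 0.270, edgeR adjusted p = 0.0325), both named after their values were seen. Leaving out L − N replicate 1, PPP1R14A was called (−1.19, edgeR adjusted p = 0.0453) and ROCK2 was not (0.91, edgeR adjusted p = 0.0643). KCNMB1, the smooth muscle subunit of the large-conductance potassium channel, was also named after its values were seen, for its ratio of 7.13 in that library.

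**Figure D3:**
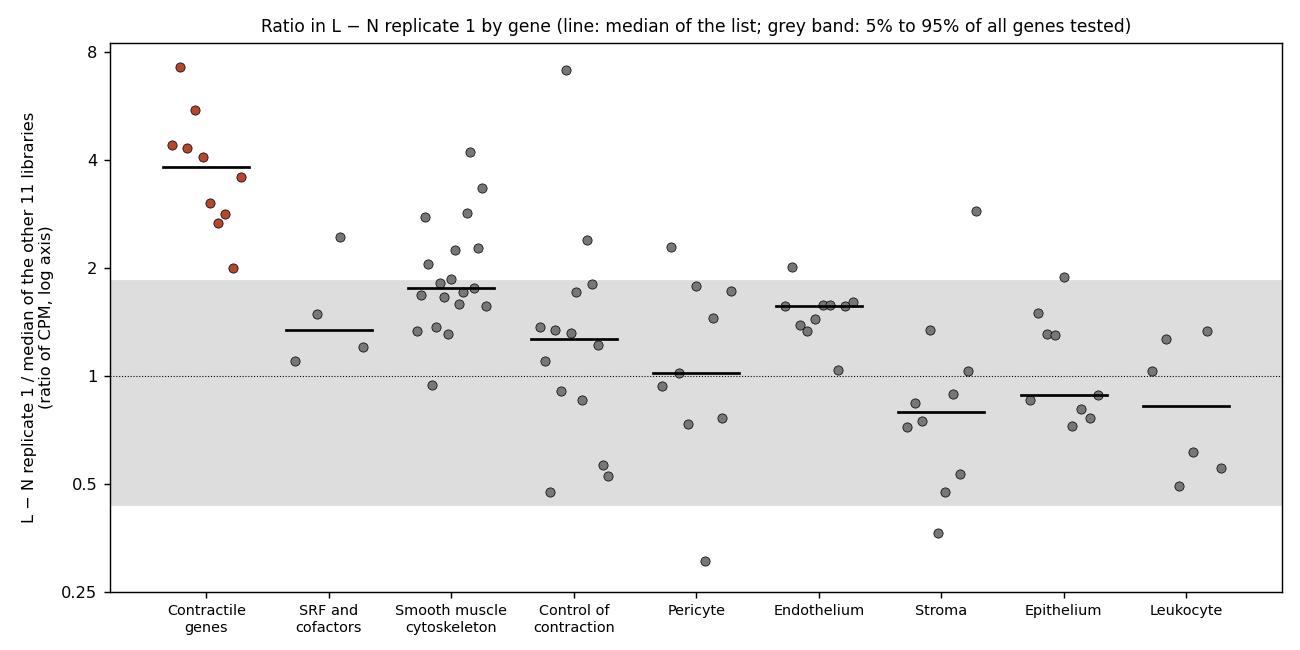
Level of each gene in L − N replicate 1 over the median of the other 11 libraries (ratio of CPM, log axis), by list. Points are genes, lines are list medians, and the grey band holds 5% to 95% of all genes tested. All 10 contractile genes lie above the band, whose upper edge is 1.84.

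Markers of other cell types were read in the same libraries. Of the endothelial markers, 8 of 10 were highest in L − N replicate 1, beside 9.51% of the genes tested. Their summed level there was 1.5 times the median of the others. The sums were 1850, 1270 and 1550 CPM in L − N and 934 to 1410 CPM in the other groups. PECAM1, an adhesion molecule of endothelium, passed the F test (edgeR adjusted p = 0.0299), 1 of 10 beside 6.96% of the genes tested. PECAM1 averaged 402 ± 60.9 CPM in L − N, against 189 ± 21.8, 307 ± 23.7 and 234 ± 67.6 in L + N, H − N and H + N (SD, n = 3). Pericyte markers, which label the mural cells of small vessels, summed to 1470, 1780 and 1660 CPM in L − N and to 999 to 1510 CPM elsewhere. Highest in L − N replicate 1 were 4 of 9, beside 9.51% of the genes tested. RGS5, CSPG4 and MCAM of this list passed the F test (edgeR adjusted p = 0.0163, 0.0346 and 0.0489), 3 of 9 beside 6.96% of the genes tested. RGS5 had 506 ± 19.8 CPM in L − N against 176 ± 6.28 in H − N (SD, n = 3). The pericyte sums of L − N replicates 2 and 3 were thus above all sums of the other groups, and the endothelial sum was highest in L − N replicate 1. The part of these vascular markers in the contractile results was not tested.

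Leukocyte markers divided the L − N libraries in the other direction. They summed to 524, 1550 and 1520 CPM in L − N and to 362 to 713 CPM in the other 9 libraries. Highest in L − N replicate 1 were 0 of 6, beside 9.51% of the genes tested. CD163 and CSF1R, receptors of macrophages, passed the F test (edgeR adjusted p = 0.0301 and 0.0270), 2 of 6 beside 6.96% of the genes tested. In summed level, the stromal markers in L − N replicate 1 were at 0.866 times, and the epithelial markers at 0.928 times, the median of the others. By gene, the median ratios of these lists were 0.794 and 0.885. The sums of these lists were 26800 to 62000 CPM and 1040 to 2390 CPM over the libraries. Highest in L − N replicate 1 were 2 of 10 and 1 of 9, beside 9.51% of the genes tested. VIM and HOXA10 of the stromal list and CDH1 of the epithelial list passed the F test (edgeR adjusted p = 0.0163, 0.0212 and 0.0362). These were 2 of 10 and 1 of 9, beside 6.96% of the genes tested. VIM was 2910 ± 744 CPM in L − N and 952 ± 99.2 in H − N, and HOXA10 was 90.1 ± 12.5 in L − N and 273 ± 78.2 in L + N (SD, n = 3). VIM was highest in L − N replicate 1, with 3730 CPM, 2.88 times the median of the others, while HOXA10 was at 0.364 times. Epithelial and stromal markers were thus present in every library. How much of each sample was endometrium was not tested.

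Skeletal and cardiac muscle markers summed to only 2.35 to 7.15 CPM per library. ACTA1, the skeletal actin, had at most 1 read in any library and TNNT3, a fast skeletal troponin, had 0 in all. MYH2, a fast skeletal myosin, passed the F test (edgeR adjusted p = 0.0270) at a level of 0 to 3.76 CPM. It was 1 of 4 genes of this list that were tested, beside 6.96% of all genes tested.

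**Figure D4:**
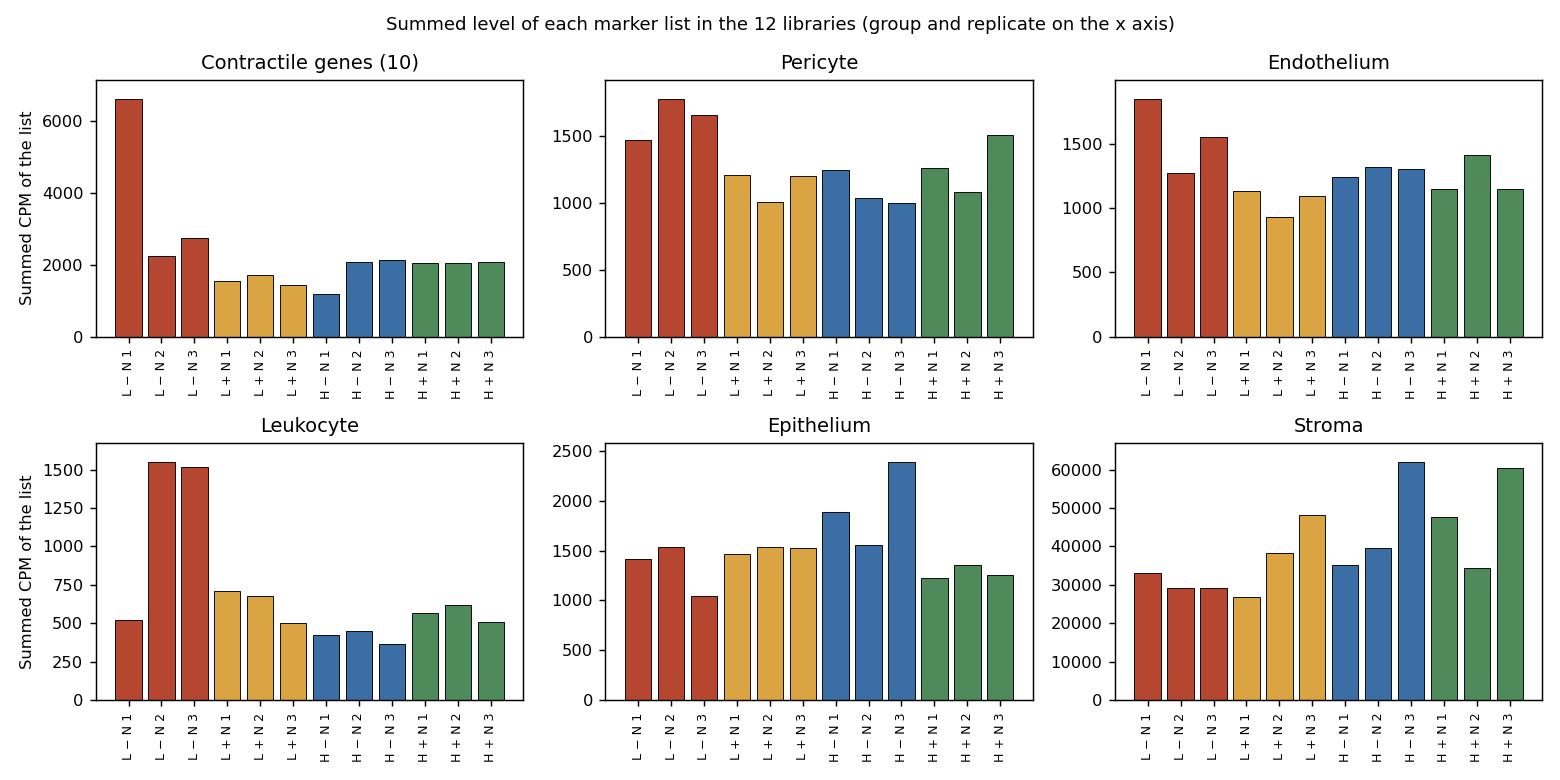
Summed CPM of the contractile genes and of 5 marker lists in each of the 12 libraries (linear axes starting at 0, 1 bar per library, colors by group). L − N replicate 1 stands out for the contractile genes with 6630 CPM, while the leukocyte markers are high in L − N replicates 2 and 3 with 1550 and 1520 CPM.

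The genes whose pattern over the 12 libraries was most like the mean log2 CPM of the contractile genes were ranked among 10645 other genes with a mean of at least 10 CPM. The first 5 were PALLD (palladin, of actin bundles), TPM2 (beta-tropomyosin), KCNA5 (a voltage-gated potassium channel), DSTN (destrin, which severs actin filaments) and TM4SF1 (a membrane protein). Pearson's r was 0.982, 0.962, 0.951, 0.950 and 0.944, and Spearman's rank correlation was 0.839, 0.797, 0.853, 0.839 and 0.839, where the median r of all candidates was 0.022. Without L − N replicate 1, r was 0.921, 0.889, 0.871, 0.789 and 0.817. Without the 2 libraries farthest from the median it was 0.902, 0.823, 0.834, 0.778 and 0.749. These values share libraries and are given as a description. PALLD had 346 CPM in L − N replicate 1 and at most 205 CPM elsewhere, and KCNA5 had 43.9 CPM and at most 20.6 CPM. Each contractile gene is itself part of this mean, which raises its r. Its values are therefore not comparable with those of the genes above. Among the contractile genes themselves, r with their common mean was highest in ACTA2 (0.975) and CNN1 (0.971) and lowest in MYL9 (0.803). Without L − N replicate 1 it was 0.943 in ACTA2 and 0.925 in CNN1, and it came down to 0.394 in DES and 0.317 in LMOD1.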

How the data were processed

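RNA of endometrium was measured in 12 libraries, 3 in each of 4 groups, which were assigned from the deposited titles. The authors deposited 1 table, which gives reads counted and FPKM by gene and library. The counts are, per the labels, unnormalized reads per gene, and the submitters' processing notes name fastp 0.22.0, HISAT2 2.1.0, HTSeq 0.9.1 and Sscrofa11.1. The deposited FPKM values follow from the counts, gene lengths and library totals, to within 1.91e-05 percent, and were used only to compare genes with each other. Strand and multiply aligned reads in counting were not given in the sources used here.

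Counts were analysed in R 4.3.3 with edgeR 4.0.16. Genes were filtered by filterByExpr (15351 tested), scaled by TMM, and fitted with a quasi-likelihood model with 1 mean per group, so that all 12 libraries shared 1 estimate of the spread. P-values were adjusted by Benjamini-Hochberg over all genes tested. The F test over the 4 groups was called at an adjusted p under 0.05, and contrasts also needed a log2 fold change over 1 in size. The study used both thresholds with DESeq2, which is an alternative here. CPM use the TMM factors, and log2 CPM a prior count of 2. The biological coefficient of variation was 0.269. Pairs of replicates differed by a chi-square of 23.3 to 99.8 per gene, so no library was a repeat of another. Alternatives were RLE scaling, no filter, DESeq2 1.42.0, the replicate number as a block, and leaving out each library.

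The contractile genes and the 9 other lists, with 93 genes of which 90 were found, were chosen with earlier results of these data known. All contractile genes are named. From the other lists, genes past the F test are named (at most 5 per list), and the 5 genes with the highest Pearson r to the contractile genes. MRTFA and MRTFB were looked up under older symbols.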

Additional observations from a re-analysis of the deposited data

How the results depend on the processing

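The choice of tool and single libraries moved the counts of called contractile genes, while no filter on low counts moved none of them and RLE scaling only 1. DESeq2 called 5 genes over the 4 groups (2 by edgeR), 7 in L + N against L − N (3 by edgeR), 3 in H − N against L − N (1), 3 in H + N against L − N (1) and 3 for the interaction (0). Over all genes its calls rose as well, to 3324 over the 4 groups (1068 by edgeR), 901 (613), 936 (446), 1000 (549) and 187 (0) in the same order. RLE scaling called 2 in H − N against L − N, with 471 genes in all. With 1 library left out, the counts ran from 0 to 2 over the 4 groups, 1 to 7 in L + N against L − N, 0 to 1 in H − N against L − N, 0 to 1 in H + N against L − N and 0 to 1 for the interaction. They were 0 throughout for fiber and for NCG. Over all genes the calls in these fits ran from 4 to 1732, 143 to 911, 0 to 1120, 1 to 948 and 0 to 346 in the same order of comparisons.

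Directions reversed without L − N replicate 1. Over the fits that left out 1 library, the fiber effect ran from −0.49 to 0.03 in MYH11, −0.51 to 0.64 in ACTG2, −0.50 to 0.19 in CNN1, −0.52 to 0.38 in DES, −0.57 to 0.06 in LMOD1, −0.25 to 0.26 in MYLK and −0.20 to 0.04 in SMTN. ACTG2 also reversed without H − N replicate 1 (0.13). The NCG effect ran from −0.51 to 0.01 in MYH11 and −0.23 to 0.01 in SMTN, and the interaction from −0.21 to 1.58 in DES. H + N against L − N ran from −1.0 to 0.04 in MYH11, −1.82 to 0.08 in ACTG2, −1.65 to 0.14 in DES, −0.80 to 0.22 in MYLK and −0.43 to 0.05 in SMTN. H − N against L − N ran from −1.87 to 0.42 in ACTG2, −1.31 to 0.48 in DES and −0.94 to 0.08 in MYLK. No value of MYL9, ACTA2 or TAGLN reversed. The cause was not tested.

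Replicate numbers did not pair the libraries. Deviations from the group means correlated at −0.322 to 0.283 (median −0.0413) for same-numbered libraries and at a median of 0.0298 for others, and 3 of 12 libraries correlated best with their own number. With the replicate block, 1 gene, MYL9, was called over the 4 groups (477 genes in all), ACTA2 lost its call in L + N against L − N (edgeR adjusted p = 0.0690), and the fiber effect of ACTG2 was 0.01.

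Leaving out L − N replicate 1 moved the median log2 fold change of the contractile genes from −1.46 to −0.55 in L + N, from −1.06 to −0.20 in H − N and from −1.08 to 0.01 in H + N, each against L − N.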
